A study of Mus musculus with 4 samples.

Results

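The genes described here encode the cytosolic factors that drive the elongation step of translation: Eef1a1, Eef1a2, Eef1b2, Eef1d, Eef1g and Eef2, 6 of the 32285 genes counted. They were followed in single nuclei of the mouse basolateral amygdala (BLA), an almond-shaped centre of the temporal lobe that links sensory cues with fear and reward. The genes were taken by symbol and chosen by their CPM values per class and library and by the difference between the genotypes within each replicate number, so their levels and genotype differences are a description and are not tested as new findings. UMIs of all 6 genes were counted in neurons and in glia, and the results below give how their share of nuclear RNA varied over the cell classes and between the genotypes. Levels are given in CPM, the UMIs (unique molecules counted) of a gene scaled to the total of its class and library. In DISC1-N mice Disc1 is altered, a gene for a scaffold protein of neural development with a known link to mental illness, and they were set against wild-type (WT) mice, both on the C57BL/6J strain. Tissue of both groups was collected 6 h after tamoxifen, so the WT mice received the drug as well. BLA of both hemispheres from 5 mice was pooled for each group, and each genotype had 2 libraries, called replicate 1 and replicate 2. The labels give no age, no promoter or cell type that drives the modified Disc1, and do not say whether the libraries of a genotype came from different mice, so the spread between them may be technical.

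Elongation adds amino acids to a growing chain. The eEF1A protein, encoded by Eef1a1 in most cells and by Eef1a2 in mature neurons and muscle, binds GTP and delivers each aminoacyl-tRNA to the ribosome. The eEF1B complex exchanges the GDP left on eEF1A for GTP; its catalytic subunits are encoded by Eef1b2 (beta) and Eef1d (delta), and Eef1g encodes the gamma subunit that holds the complex together. Eef2 encodes the GTPase that moves the ribosome along by a codon, and its kinase Eef2k switches it off in neurons under some forms of synaptic activity. Most of these mRNAs carry a terminal oligopyrimidine (TOP) start that places their translation under mTOR control. Libraries of nuclei hold RNA that has not yet been exported, together with free cytoplasmic RNA, so a level here is not the mRNA content of the whole cell.

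The 4 libraries held 27313 barcodes with 37840301 to 48439711 UMIs per library, and 25332 nuclei remained after filtering. Of these, 5780 were excitatory neurons, 6808 inhibitory neurons, 3181 astrocytes, 2336 oligodendrocytes, 1869 oligodendrocyte precursors and 1409 microglia, classes named from fixed markers. Excitatory nuclei had 164.5 to 261.4 CPM of Slc17a7, the vesicular glutamate transporter of these neurons, and their largest cluster was led by Rspo2, a marker of BLA projection neurons. Another 3528 nuclei had no class, among them 2115 of an excitatory-scoring cluster with a median doublet score above 0.1, which held 866 and 124 nuclei of the DISC1-N libraries and 951 and 174 of the WT libraries (replicates 1 and 2). A further 544 nuclei formed a shallow cluster led by mitochondrial transcripts, ribosomal protein genes and Ddn, a dendritic mRNA. Pairs of libraries shared 5 to 21 cell barcodes. Disc1 had 14.1 and 11.4 CPM in excitatory neurons of the DISC1-N libraries, against 8.99 and 8.19 CPM in WT, but a 3' assay need not see the modification, so this does not check the labels. Both replicate 1 libraries were made with another Cell Ranger version than both replicate 2 libraries, per the file headers. In excitatory neurons Eef1a1 was higher in replicate 1 than in replicate 2 by a log2 difference of 1.21 in DISC1-N and 1.16 in WT, and Eef1b2 by 0.95 and 1.00 in the same order, while the median of all genes differed by 0.11 in both genotypes.

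The genes lie on 6 chromosomes (mm10, GENCODE vM21). Eef1a1 is on chr9:78478449-78489151 (minus strand), Eef1a2 on chr2:181147653-181157014 (minus), Eef1b2 on chr1:63176825-63180486 (plus), Eef1d on chr15:75894205-75909556 (minus), Eef1g on chr19:8967041-8978479 (plus) and Eef2 on chr10:81176631-81182498 (plus). Eef1b2 overlaps the first exon of Ndufs1 on the other strand and hosts snoRNA genes that were not counted. The 3' end of Eef1d overlaps an exon of Naprt on the same strand, so reads of the 2 genes can be confused and the Eef1d counts are uncertain. Several of these genes, Eef1a1 above all, have processed pseudogene copies, and reads that fit a copy equally well may have been lost or assigned elsewhere.

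The alpha genes are the closest pair and are counted apart only through the bases in which they differ. Over their coding sequences, of 1389 bases in Eef1a1 and 1392 in Eef1a2, 1113 of 1392 aligned positions were identical (80.0%). The untranslated 3' ends, which lie nearer to where the assay reads, and the introns were not compared. The 80.0% is therefore not the identity of the stretches that were counted. The ends of the coding sequences are printed here up to the stop codon (GENCODE transcripts Eef1a1-201 and Eef1a2-201). Differing bases are in capitals, 21 in Eef1a1 and 24 in Eef1a2, where they include inserted bases with no partner in Eef1a1.
Eef1a1: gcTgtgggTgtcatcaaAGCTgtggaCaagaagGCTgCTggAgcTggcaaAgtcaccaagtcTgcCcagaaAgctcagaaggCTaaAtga
Eef1a2: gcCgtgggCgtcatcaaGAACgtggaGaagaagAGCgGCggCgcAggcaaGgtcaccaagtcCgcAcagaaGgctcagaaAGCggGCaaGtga

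RefSeq promoters (GRCm38.p6) were at hand for 4 of the 6 genes. They are shown because the 4 genes shared low levels in excitatory neurons and higher ones in the larger glial classes. Each sequence runs from 60 bases before the annotated start to 30 after it. It is read 5' to 3' on the strand of its gene, with the motif TATAA in capitals.
Eef1a1, chr9:78481695-78481784 (minus): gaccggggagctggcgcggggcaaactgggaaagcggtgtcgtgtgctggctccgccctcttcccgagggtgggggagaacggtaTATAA
Eef1a2, chr2:181156986-181157075 (minus): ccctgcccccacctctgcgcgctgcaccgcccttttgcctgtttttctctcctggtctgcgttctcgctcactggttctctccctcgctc
Eef1b2, chr1:63176771-63176860 (plus): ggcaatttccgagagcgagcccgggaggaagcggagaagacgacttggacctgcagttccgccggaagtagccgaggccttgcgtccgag
Eef2, chr10:81176571-81176660 (plus): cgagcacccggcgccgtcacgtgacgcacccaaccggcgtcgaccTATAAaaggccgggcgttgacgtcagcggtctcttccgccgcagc
The motif TATAA was searched on both strands. It began 15 bases before the start in Eef2 and at base 26 after the start in Eef1a1, and these letters were not in the windows of Eef1a2 and Eef1b2. The RefSeq start of Eef1a1 used here, chr9:78481724, lies inside the GENCODE gene span and not at its 5' end, chr9:78489151. Among 32851 promoters of the table, 9.0% held the motif in the same window.

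Eef1a1, the general alpha gene, had its lowest levels in neurons, and its highest in microglia with classes set by cluster. In excitatory neurons it stood at 104.4 and 45.0 CPM in DISC1-N replicates 1 and 2, against 126.7 and 56.6 CPM in WT. In inhibitory neurons it had 172.6 and 79.0 CPM in DISC1-N and 197.2 and 105.1 CPM in WT libraries. Excitatory nuclei were the lowest of the 6 classes and inhibitory nuclei the next lowest in each of the 4 libraries. Astrocytes had 288.6 and 141.7 CPM in DISC1-N and 340.8 and 173.9 CPM in WT libraries. Microglia had 487.4 and 282.9 CPM in DISC1-N and 519.2 and 308.9 CPM in WT libraries. Over the 4 libraries the mean was 83.2 ± 38.8 CPM in excitatory neurons, 138.5 ± 55.6 in inhibitory neurons, 228.6 ± 87.0 in oligodendrocyte precursors, 236.2 ± 94.0 in astrocytes, 309.0 ± 152.6 in oligodendrocytes and 399.6 ± 120.9 in microglia (SD, n = 4, genotypes and replicates together). Precursors, astrocytes, oligodendrocytes and microglia each differed from the next in this order by less than either SD, while inhibitory neurons lay below precursors by more than either SD. The first place of microglia depended on how nuclei were put into classes. With classes set by each nucleus's own marker score instead of its cluster, Eef1a1 had a mean of 185.1 CPM in oligodendrocytes, 174.4 in microglia, 173.8 in precursors, 163.7 in astrocytes, 118.1 in inhibitory and 73.3 in excitatory neurons. In all 6 classes the Eef1a1 levels of the genotypes overlapped, because both libraries of replicate 1 lay above both of replicate 2.

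Eef1a2, the alpha gene of mature neurons, was not highest in neurons on this scale. Excitatory neurons had 44.0 and 27.5 CPM in DISC1-N and 43.4 and 33.6 CPM in WT libraries, the lowest of the 6 classes in each library. Inhibitory neurons had 64.8 and 37.6 CPM in DISC1-N and 69.9 and 51.5 CPM in WT libraries. Astrocytes had 106.8 and 60.3 CPM in DISC1-N and 106.0 and 63.4 CPM in WT libraries, and microglia 201.7 and 79.8 CPM in DISC1-N and 160.6 and 126.2 CPM in WT libraries. By their means astrocytes, precursors, oligodendrocytes and microglia lay above both neuron classes. Differentiating oligodendrocytes, a rare class with 11 Eef1a2 UMIs in all, did not, with a mean of 36.7 ± 25.6 CPM. Excitatory neurons had a mean of 37.1 CPM and inhibitory neurons 55.95 CPM. In WT replicate 1, however, precursors had 65.9 CPM and so lay below the inhibitory neurons of that library. With classes set by each nucleus's own marker score, oligodendrocytes were highest with 70.4 CPM, ahead of microglia with 65.6 CPM. Within each class the genotypes overlapped.

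The share of Eef1a2 in the UMIs of the alpha pair differed less between classes than either gene's level. It was 29.7% and 37.9% in DISC1-N excitatory neurons and 25.5% and 37.2% in WT excitatory neurons (replicates 1 and 2). Over the 4 libraries it averaged 32.6% ± 6.02 in excitatory neurons, 29.65% ± 3.42 in inhibitory neurons, 28.5% ± 3.96 in oligodendrocytes, 26.8% ± 2.51 in astrocytes, 26.0% ± 3.72 in microglia and 24.7% ± 5.28 in precursors (SD, n = 4). In each of the 4 libraries the share was higher in excitatory neurons than in precursors, astrocytes and microglia. In the shallow cluster with no class the share was 32.5% ± 6.38, as high as in excitatory neurons. Among neuron subtypes it ran from 27.6% ± 6.32 in Adarb2 inhibitory nuclei to 37.5% ± 7.96 in Rspo2 Col5a2 excitatory nuclei. Among rarer cells it was 12.95% ± 2.28 in differentiating oligodendrocytes, on 11 Eef1a2 UMIs in all, 21.1% ± 4.35 in endothelial cells and 24.0% ± 13.1 in mural cells.

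Neuronal transcripts were also present in the glial nuclei. Slc17a7 had 129.7 and 36.1 CPM in astrocytes of the DISC1-N libraries, against 152.5 and 51.4 CPM in WT. Microglia had 302.5 and 79.8 CPM of it in DISC1-N and 219.5 and 126.2 CPM in WT libraries, a range that spans the values of excitatory neurons. Inhibitory neurons had less, with a mean of 43.2 CPM over the 4 libraries. Set against Slc17a7, Eef1a2 had 0.175 UMIs per Slc17a7 UMI in excitatory neurons, 1.55 in inhibitory neurons, 0.85 in microglia and 1.10 to 1.13 in astrocytes, precursors and oligodendrocytes, as means of 4 libraries. The shallow cluster had 0.75, with a range of 0.50 to 1.33 that overlapped the glial classes. How much of the glial Eef1a2 was free RNA was not tested.

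**Figure D1:**
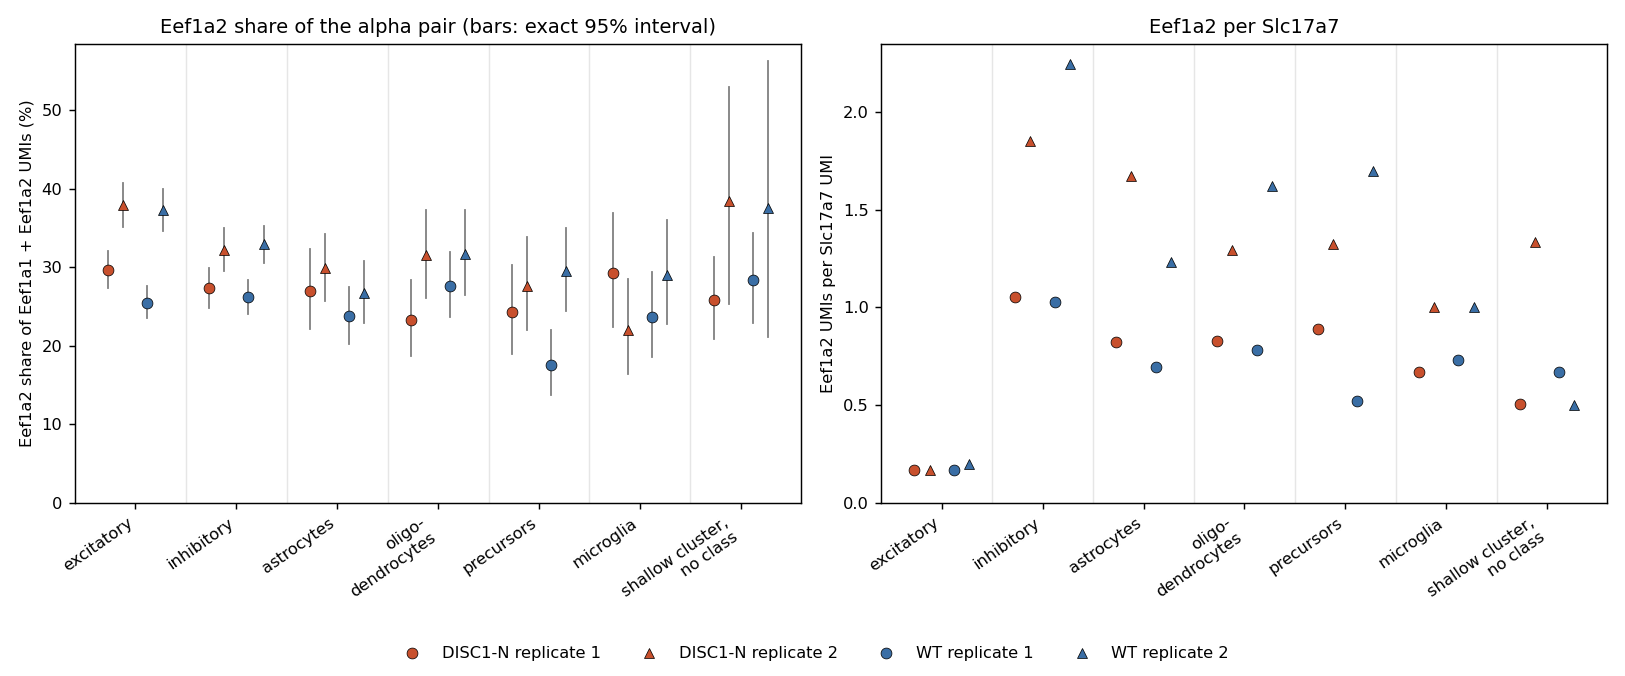
Left, share of Eef1a2 in the UMIs of Eef1a1 and Eef1a2 (percent, y axis) per library in 6 classes and the shallow cluster with no class (x axis), with exact 95% binomial intervals that cover counting error only. Right, Eef1a2 UMIs per Slc17a7 UMI in the same units; colours give the genotype and marker shapes the replicate number. The share lies near 30% in most units, while the ratio to Slc17a7 is lowest in excitatory neurons (mean 0.175).

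The beta gene Eef1b2 showed the same order of neurons and glia. Excitatory neurons had 36.3 and 18.8 CPM in DISC1-N and 53.1 and 26.5 CPM in WT libraries, and inhibitory neurons 79.2 and 34.3 CPM in DISC1-N and 94.8 and 56.9 CPM in WT libraries. Astrocytes had 82.6 and 44.0 CPM in DISC1-N and 119.8 and 81.5 CPM in WT libraries. Oligodendrocytes had 126.9 and 57.8 CPM in DISC1-N and 151.5 and 87.3 CPM in WT libraries. In each of these classes the DISC1-N library was the lower one of its replicate number, although the genotypes overlapped. Precursors had 141.3 and 53.8 CPM in DISC1-N and 148.0 and 90.9 CPM in WT libraries, and microglia 121.8 and 98.7 CPM in DISC1-N and 155.2 and 110.5 CPM in WT libraries. The means over 4 libraries ran from 33.7 ± 14.8 CPM in excitatory neurons and 66.3 ± 26.4 in inhibitory neurons over 82.0 ± 30.9 in astrocytes, 105.9 ± 41.5 in oligodendrocytes and 108.5 ± 44.5 in precursors to 121.6 ± 24.3 in microglia (SD, n = 4). With classes set by each nucleus's own marker score, precursors were highest with 81.3 CPM, followed by oligodendrocytes with 65.7 and microglia with 63.3 CPM.

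Eef1d, the delta gene, differed least of the 6 between replicate numbers in both neuron classes. It stood at 18.1 and 14.1 CPM in DISC1-N excitatory neurons, against 16.8 and 14.1 CPM in WT. Its mean was 15.8 ± 1.98 CPM there, 21.6 ± 2.50 in inhibitory neurons, 34.4 ± 8.29 in astrocytes, 37.8 ± 11.7 in oligodendrocytes, 41.8 ± 0.926 in microglia and 48.5 ± 9.49 in precursors, so that precursors, not microglia, were highest. Each glial class differed from its neighbour by less than the larger of their SDs, and all lay above both neuron classes. Eef1g, the gamma gene, stood at 33.0 and 24.3 CPM in DISC1-N excitatory neurons, against 37.5 and 27.0 CPM in WT. Its means ran from 30.5 ± 5.98 CPM in excitatory neurons to 86.4 ± 10.1 in microglia. With classes set by each nucleus's own marker score, Eef1g in microglia was the lowest of the 4 glial levels, with 46.5 CPM, against 48.45 in oligodendrocytes, 49.9 in precursors and 50.3 in astrocytes.

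Eef2, the translocase gene, stood at 22.1 and 16.5 CPM in DISC1-N excitatory neurons, against 24.7 and 17.9 CPM in WT. Inhibitory neurons had 29.6 and 17.5 CPM in DISC1-N and 31.0 and 18.8 CPM in WT libraries. Its mean was 20.3 ± 3.75 CPM in excitatory and 24.3 ± 7.06 CPM in inhibitory neurons, which overlap. Precursors, astrocytes and oligodendrocytes lay between these and microglia, which had 57.9 ± 9.89 CPM. With classes set by each nucleus's own marker score, oligodendrocytes were highest with 32.3 CPM and microglia had 29.4 CPM.

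**Figure D2:**
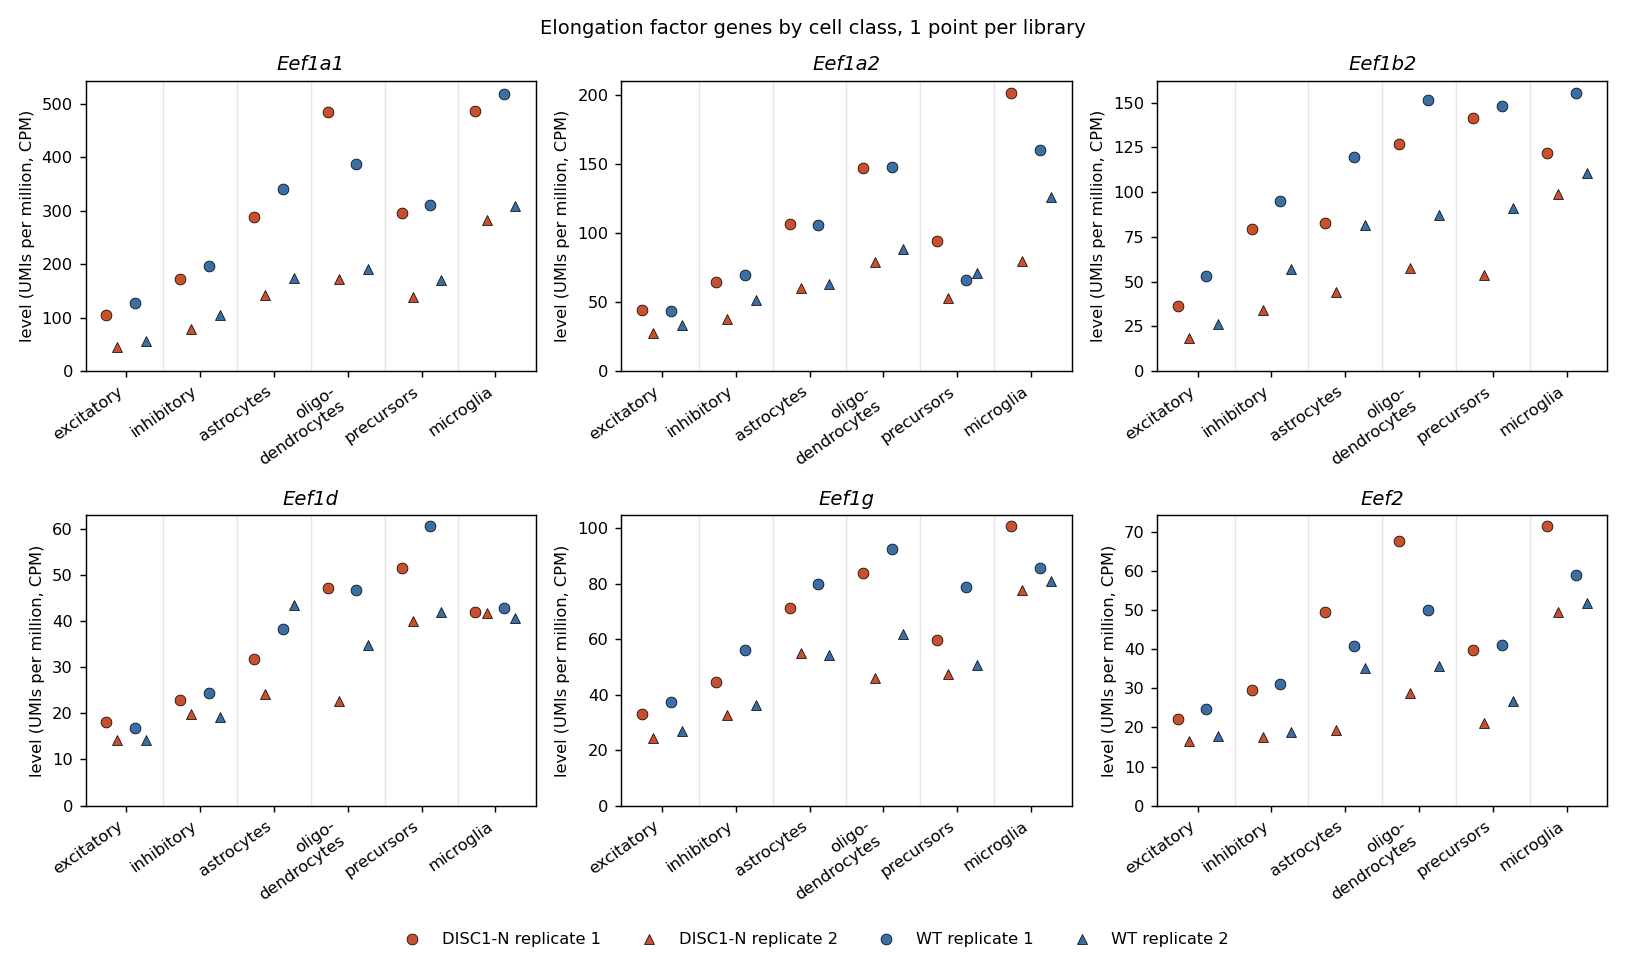
Level in CPM (y axis from 0) of the 6 elongation factor genes, 1 panel each, in 6 cell classes (x axis). Each point is 1 library, with DISC1-N left of WT in each class and circles for replicate 1 and triangles for replicate 2. Excitatory neurons are lowest in every panel by their mean, and replicate 1 libraries mostly lie above those of replicate 2.

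With classes set by cluster, the order of the levels ran against sequencing depth. Median UMIs per nucleus were 8100 in excitatory neurons, 4073 in inhibitory neurons, 2092 in precursors, 1895 in astrocytes, 1349 in oligodendrocytes and 1092 in microglia (means of 4 libraries). The mean levels of Eef1a1, Eef1a2, Eef1g and Eef2 followed exactly the reverse of this order. Over 24 sums (these 6 classes, each with 4 libraries), Pearson's r with the log10 median UMIs was -0.99 for Eef1a1, -0.97 for Eef1g, -0.96 for Eef1a2, -0.94 for Eef1b2, -0.92 for Eef2 and -0.86 for Eef1d, on log2(CPM + 1) centred within each library. With endothelial and mural cells, 136 and 167 nuclei in all, it was -0.94 for Eef1a1, -0.91 for Eef1b2, -0.79 for Eef1g, -0.68 for Eef2, -0.65 for Eef1a2 and -0.28 for Eef1d over 32 sums, where Eef1d had 0 UMIs in endothelial cells of WT replicate 2. These points share libraries and depth and are no independent sample. The relation was also there inside 1 class: excitatory nuclei of 2000 to 5000 UMIs had a mean of 71.4 CPM of Eef1b2, those of 5000 to 10000 UMIs had 40.3 CPM and those of 10000 to 20000 UMIs 24.9 CPM. Over the same bins Slc17a7 moved less, with 253.1, 229.6 and 206.0 CPM. Whether free RNA, which takes a larger share of a shallow nucleus, or the cells themselves set these levels was not tested.

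**Figure D3:**
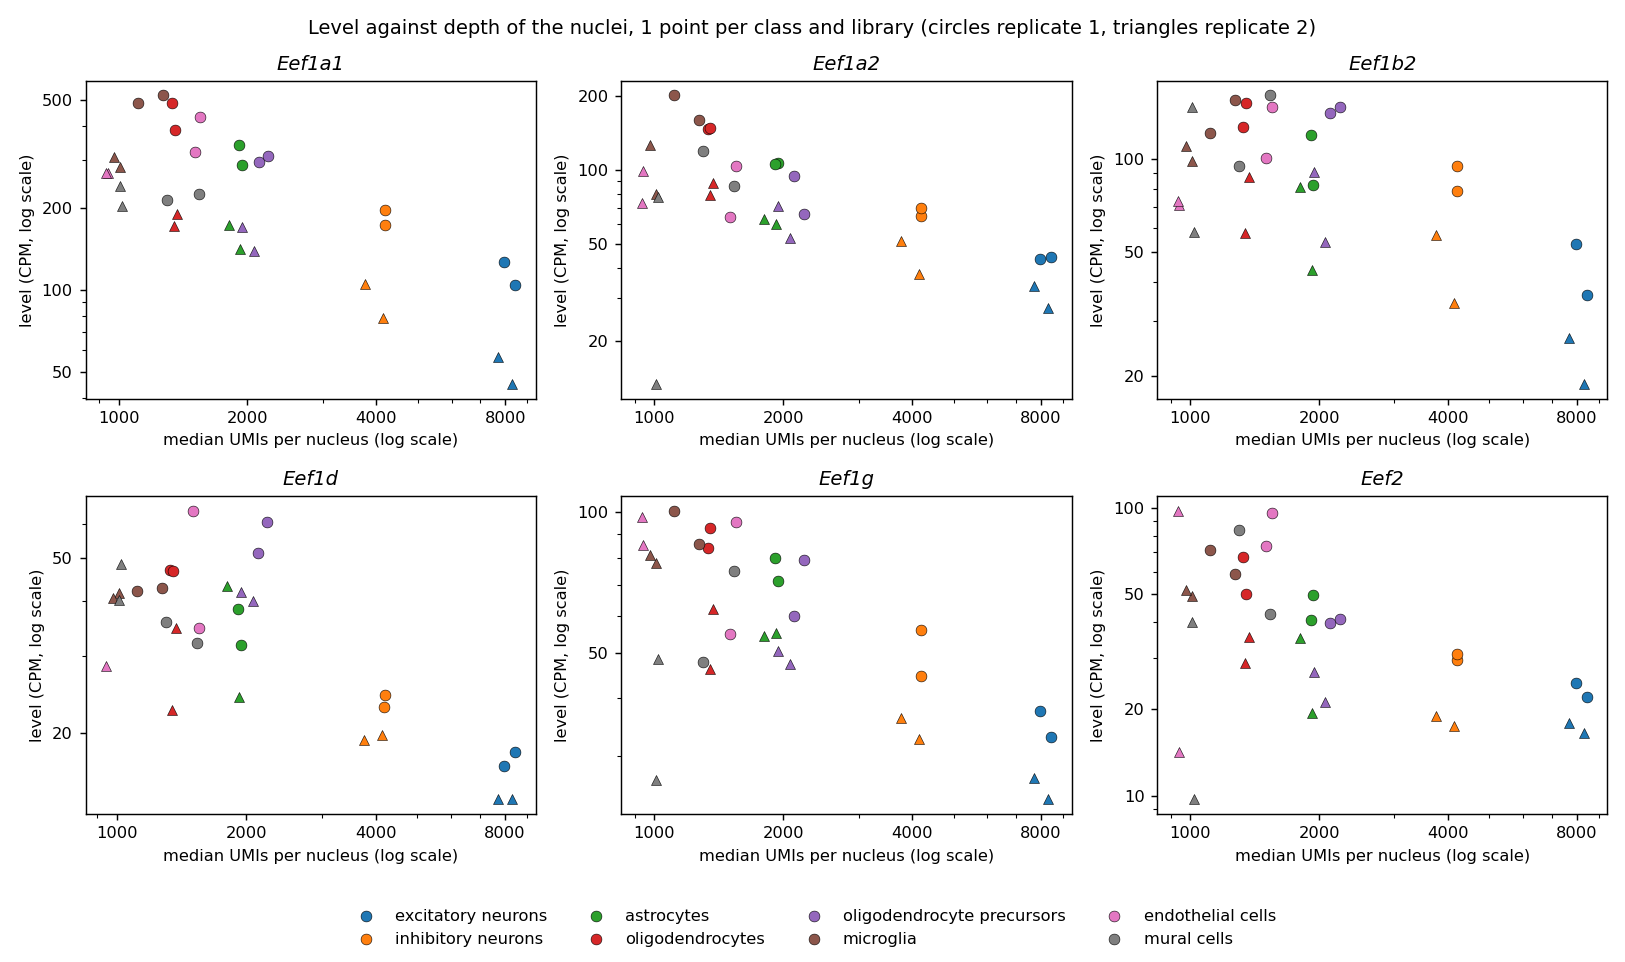
Level in CPM (y axis, log scale) against median UMIs per nucleus (x axis, log scale) for the 6 genes, where each point is 1 class in 1 library over 8 classes. Endothelial cells of WT replicate 2 had no Eef1d UMI and are not drawn in that panel. Levels are lowest in the deepest class, excitatory neurons, and the 6 larger classes follow depth more closely (Eef1a1, r = -0.99 over 24 sums) than all 8 do (r = -0.94 over 32).

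Across the same 24 sums all 6 genes varied together, with Pearson's r from 0.72 (Eef1a2 and Eef1d) to 0.97 (Eef1a1 and Eef1g). Eef1b2 had 0.95 with Eef1a1 and 0.91 with Eef1d, its partner subunit, and Eef1g had 0.93 with Eef1a2. With the rare endothelial and mural cells these values were lower, and r between Eef1d and the others was -0.10 to 0.47 over 32 sums. An endothelial library had no Eef1d UMI, and its part in these values was not tested. Among 7628 other genes with a mean of at least 20 CPM, those most alike over the 32 sums were Chchd2 (r = 0.98), Atp5j and Ndufa4 for Eef1a1, Hras (r = 0.89), Ncdn and Plod1 for Eef1a2, and Srsf3 (r = 0.94), Hspa8 and Oaz1 for Eef1b2. For Eef1d they were Tmed7 (r = 0.95), Ctsb and Ldhb, for Eef1g Hras (r = 0.93), Arid2 and Actg1, and for Eef2 B3gat3 (r = 0.88), Nsa2 and Set. Over the 24 sums without the rare classes none of these genes stayed among the 3 most alike: Oaz1 ranked 7 and Srsf3 8 for Eef1b2, Chchd2 7 for Eef1a1, Tmed7 95 for Eef1d, Hras 85 for Eef1a2, Actg1 34 for Eef1g and Set 202 for Eef2, as the best of each set. Leaving out these classes was chosen after the values were seen.

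Between the genotypes, Eef1b2 was at the lower level in DISC1-N in replicate 1 and in replicate 2 of all 6 classes tested. No other member did so in all 6. In single classes 27% to 30.1% of all tested genes were lower in both, and the share that were so in all 6 was not computed. The classes come from the same 4 libraries and are no separate repeats. For Eef1b2 the values were as follows. The log2 ratio of DISC1-N to WT CPM in excitatory neurons was -0.55 in replicate 1 and -0.50 in replicate 2, with counting errors of 0.10 and 0.11 (SE). It was -0.26 and -0.73 in inhibitory neurons, -0.54 and -0.89 in astrocytes, and -0.26 and -0.60 in oligodendrocytes. In precursors it was -0.07 and -0.76, and in microglia -0.35 and -0.16, where the counting errors of 0.20 and 0.22 in precursors and 0.33 and 0.29 in microglia cover the smaller values. Eef1a1 was lower in both replicate numbers in 5 of 6 classes, with -0.28 and -0.33 in excitatory and -0.19 and -0.41 in inhibitory neurons, but had 0.32 and -0.14 in oligodendrocytes.

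The other 4 genes were less uniform. Eef1g was lower in both replicate numbers in 4 of 6 classes, Eef2 in 3, and Eef1a2 and Eef1d in 2 each. Counted by class, 4 of the 6 genes were lower in both replicate numbers in excitatory neurons, where 29% of all tested genes were, and 5 of 6 in inhibitory neurons (30.1% of all genes). The count was 3 of 6 in astrocytes (29.6%), 3 of 6 in oligodendrocytes (27.4%), 5 of 6 in precursors (28.4%) and 2 of 6 in microglia (27%). Since the genes were chosen with this contrast known, nothing is read from these counts. Among the 6 tested classes, both DISC1-N libraries lay below both WT libraries for a single pair of gene and class, Eef1d in astrocytes. It had 31.8 and 24.2 CPM in DISC1-N and 38.3 and 43.3 CPM in WT libraries (1 of 6 genes, against 10.6% of all genes in astrocytes). Its log2 ratios were -0.27 and -0.84, with counting errors of 0.36 and 0.25. In the other tested classes 0 of 6 genes lay apart in this way, where 9.09% of all genes did in excitatory neurons, 9.77% in inhibitory neurons, 8.95% in oligodendrocytes, 11.9% in precursors and 11.1% in microglia.

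**Figure D4:**
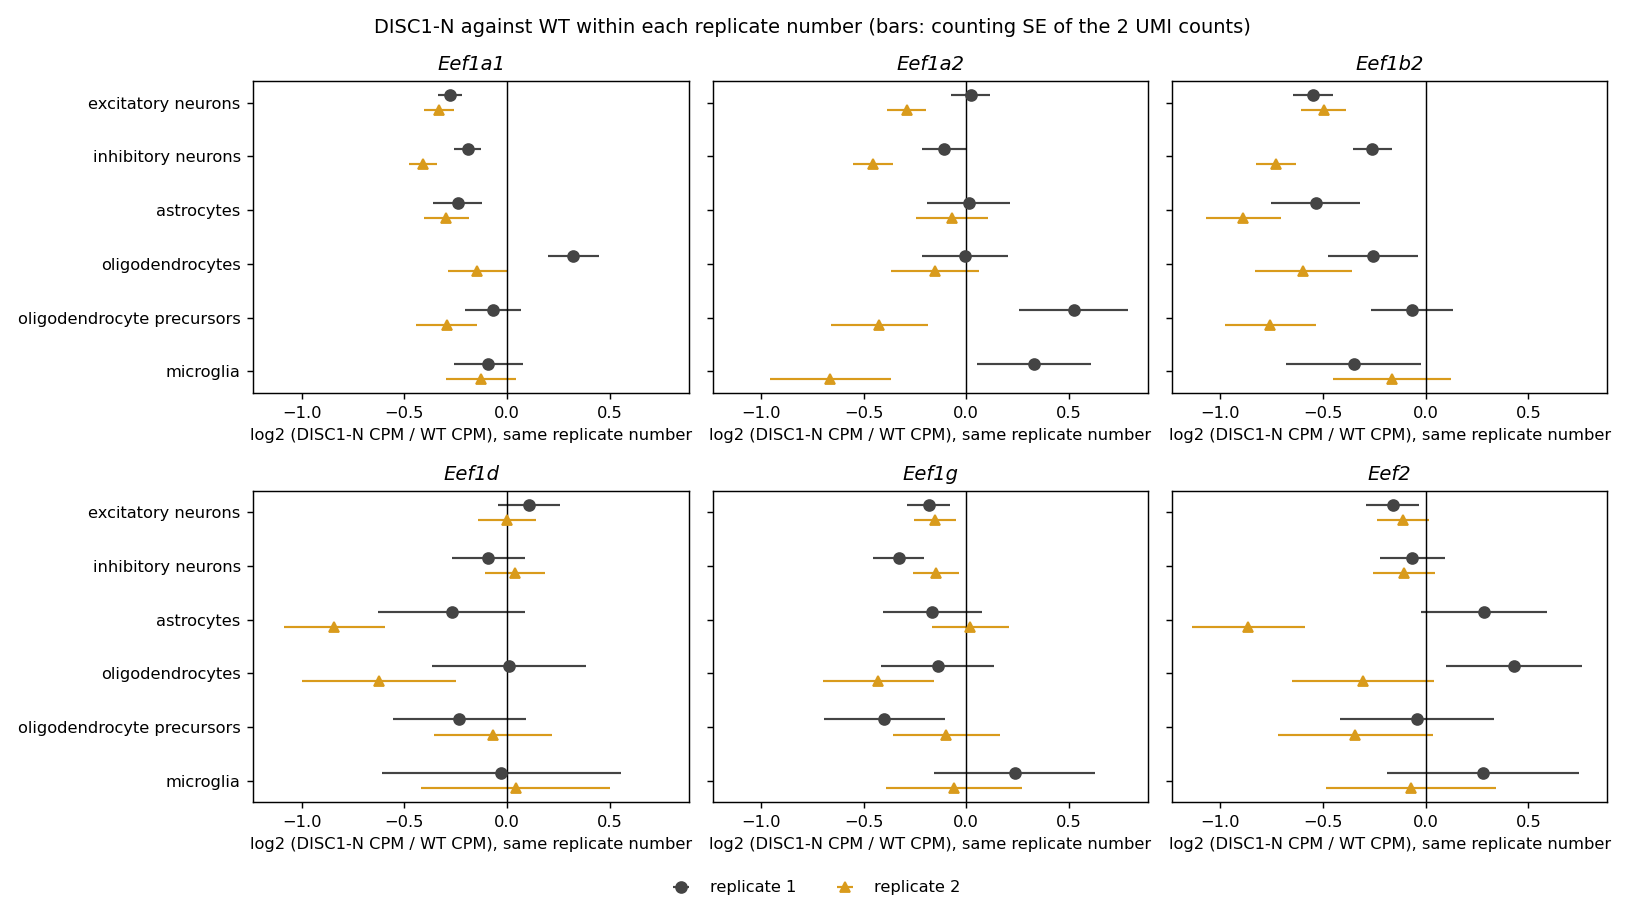
Log2 ratio of DISC1-N to WT CPM within replicate 1 and within replicate 2 (x axis, 0 for equal levels) for the 6 genes in 6 cell classes (y axis). Bars are counting standard errors. The Eef1b2 points all lie left of 0, from -0.89 to -0.07.

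Fitted over all genes without regard to the replicate number, the difference was called for none of the 6 genes, and for 0 of 16032 genes in excitatory neurons (0%) by edgeR's quasi-likelihood test with Benjamini-Hochberg adjustment. At an unadjusted p under 0.05 edgeR had 103 genes, DESeq2 had 40 and limma-voom 92, and these tools also called 0. The edgeR estimate of the log2 fold change there was -0.53 ± 0.37 for Eef1b2, -0.29 ± 0.44 for Eef1a1, -0.17 ± 0.21 for Eef1g, -0.13 ± 0.21 for Eef2, -0.11 ± 0.23 for Eef1a2 and 0.06 ± 0.19 for Eef1d (SE). With the replicate number as a block, which compares libraries of the same software version, edgeR called 69 of 16032 genes in this class (0.43%), of which 20 had higher and 49 lower levels in DISC1-N. Of the 6 genes, 1 was among those 49 (0.306% of all genes), Eef1b2, at -0.52 ± 0.10. The blocked estimates of the others were -0.30 ± 0.08 for Eef1a1, -0.16 ± 0.10 for Eef1g, -0.13 ± 0.12 for Eef2, -0.13 ± 0.10 for Eef1a2 and 0.06 ± 0.13 for Eef1d. This fit rests on 2 pairs of libraries and 1 residual degree of freedom per gene. It tests the same differences by which the 6 genes were chosen, so the call of Eef1b2 is a description and no independent support.

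In the other classes 0 of the 6 genes were called with the block, as without it. Blocked edgeR called 19 genes in inhibitory neurons (0.125%, with 0.092% lower), 7 in astrocytes (0.0594%, with 0.017% lower), 3 in oligodendrocytes (0.0297%, with 0% lower), 4 in precursors (0.0374%, with 0.00935% lower) and 0 in microglia (0%, with 365 genes at an unadjusted p under 0.05). Eef1b2 had -0.48 ± 0.10 in inhibitory neurons, -0.71 ± 0.17 in astrocytes, -0.40 ± 0.19 in oligodendrocytes, -0.37 ± 0.17 in precursors and -0.23 ± 0.25 in microglia (SE). Eef1d had -0.62 ± 0.23 in astrocytes. A class-by-genotype term, with the library as a factor, called 0 genes in any class set against excitatory neurons (edgeR, 7655 to 14710 genes tested, 98 to 387 genes at an unadjusted p under 0.05), so a difference between classes in the change of these genes was not shown. For Eef1b2 the term was 0.04 ± 0.14 in inhibitory neurons and -0.18 ± 0.21 in astrocytes, and for Eef1d -0.64 ± 0.25 in astrocytes.

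The blocked call of Eef1b2 in excitatory neurons depended on which nuclei were counted. With the 2115 nuclei of the cluster left out for its doublet score, the estimate was -0.33 ± 0.09 and the call was lost, among 37 genes called. That cluster alone had 41.4 and 20.5 CPM of Eef1b2 in DISC1-N and 41.8 and 28.2 CPM in WT libraries. In nuclei of 5000 to 15000 UMIs the estimate was -0.49 ± 0.10 and the call was again lost, with 17 genes called. Excitatory nuclei were deeper in DISC1-N, with medians of 8452 and 8313 UMIs, against 7946 and 7688 in WT. Within the 3 middle bins of depth the DISC1-N level was the lower one in both replicate numbers, with 98.9 and 25.9 CPM in DISC1-N and 116.3 and 44.3 CPM in WT nuclei of 2000 to 5000 UMIs. It was 47.0 and 20.4 CPM in DISC1-N and 62.1 and 31.7 CPM in WT nuclei of 5000 to 10000 UMIs, and 27.0 and 15.9 CPM in DISC1-N and 39.6 and 17.1 CPM in WT nuclei of 10000 to 20000 UMIs. Below 2000 and above 20000 UMIs, where a library had as few as 8 and 20 nuclei, the 2 replicate numbers took different sides.

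Mitochondrial transcripts and some markers of other cells were also lower in DISC1-N neurons. The mitochondrial transcripts summed to 692 and 228 CPM in DISC1-N excitatory neurons, against 1333 and 374 CPM in WT. Of 48 markers of other classes found there, 18 were lower and 11 higher in both replicate numbers, none was at 0, and their sum was 803.7 and 683.9 CPM in DISC1-N and 893.7 and 746.0 CPM in WT libraries. The 5 inhibitory markers were all lower in both, with sums of 301.4 and 238.6 CPM in DISC1-N and 345.8 and 273.6 CPM in WT. In inhibitory neurons 18 of 49 markers of other classes were lower and 9 higher in both replicate numbers, none was at 0, and they summed to 766.5 and 656.2 CPM in DISC1-N and 819.6 and 697.0 CPM in WT. In astrocytes 15 of 47 were lower and 9 higher, none was at 0, and they summed to 1861 and 1787 CPM in DISC1-N and 1873 and 1841 CPM in WT. Of all tested genes 29% were lower and 23.3% higher in both replicate numbers in excitatory neurons. The shares were 30.1% and 23% in inhibitory neurons and 29.6% and 23.3% in astrocytes. In precursors, microglia and oligodendrocytes 27% to 28.4% were lower and 23% to 23.6% higher. Nothing is read from the marker counts. In precursors, where Eef1b2 was lower in DISC1-N as well, the sums were higher in DISC1-N in both replicate numbers, with 5371 and 5988 CPM in DISC1-N and 5304 and 5966 CPM in WT (13 of 48 markers lower, 10 higher and 1 at 0). In microglia they were 3084 and 2455 CPM in DISC1-N and 2363 and 2509 CPM in WT (11 of 47 lower, 10 higher and 2 at 0), and in oligodendrocytes 2722 and 3453 CPM in DISC1-N and 3161 and 3207 CPM in WT (14 of 48 lower, 6 higher and none at 0). In precursors Erbb4 alone had 2699 and 3465 CPM in DISC1-N and 2604 and 3415 CPM in WT libraries. These sums therefore also hold genes at a high level in the class itself and do not measure free RNA. In precursors the 6 excitatory markers summed to 164.6 and 58.7 CPM in DISC1-N and 189.1 and 67.2 CPM in WT. Of these markers, 4 were lower and 0 higher in both replicate numbers. Their sums took different sides by replicate number in oligodendrocytes and microglia. With only nuclei under 1% mitochondrial UMIs, the blocked estimate of Eef1b2 in excitatory neurons was -0.49 and it was called, among 50 genes. The part of free RNA in the lower Eef1b2 level was not tested.

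Neuron subtypes, set by fixed marker lists, showed the same side for Eef1b2 with 1 exception. A list can hold more genes than the subtype's name: that of Adarb2 also held Vip, Lamp5 and Htr3a, and that of Lhx6 Sst, Pvalb and Nxph1. Among excitatory subtypes Eef1b2 was lower in DISC1-N in both replicate numbers in 5 of 6. The share of all genes that were so was 27.9% in Htr7 Col26a1 Cux2, 28.6% in Otof Col12a1 Glis3, 26% in Rorb, 27.7% in Rspo2 Adamts2, 28.5% in Rspo2 Col5a2 and 28.9% in the remaining excitatory nuclei. Rorb nuclei had 26.8 and 18.0 CPM in DISC1-N and 53.5 and 32.0 CPM in WT libraries. Rspo2 Adamts2 nuclei had 29.8 and 14.4 CPM in DISC1-N and 50.8 and 24.1 CPM in WT libraries. The exception was Rspo2 Col5a2, with 26.1 and 16.4 CPM in DISC1-N and 49.2 and 16.0 CPM in WT libraries, lower in replicate 1 alone. Excitatory subtype sums rest on 110 to 915 Eef1b2 UMIs over the 4 libraries, so their log2 ratios have counting errors of up to 0.44.

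All 5 inhibitory subtypes were lower in DISC1-N in both replicate numbers, as were 31.3% of all genes in Adarb2, 28.8% in Foxp2 Penk, 28.9% in Lhx6, 27.2% in Pde10a Rgs9 and 28.8% in the remaining inhibitory nuclei. Foxp2 Penk nuclei, the largest of them, had 95.9 and 36.5 CPM in DISC1-N and 113.2 and 65.0 CPM in WT libraries. Lhx6 nuclei had 73.5 and 27.2 CPM in DISC1-N and 97.1 and 51.9 CPM in WT libraries, and Adarb2 nuclei 83.9 and 38.6 CPM in DISC1-N and 100.4 and 54.0 CPM in WT. The log2 ratios were -0.93 to -0.48 in replicate 2 and -0.40 to -0.24 in replicate 1, and replicate 2 had the larger difference in each. In Adarb2, Pde10a Rgs9 and the remaining inhibitory nuclei the counting errors were 0.23 to 0.29, so the replicate numbers were not told apart there. The subtypes split the same libraries and are no separate repeats. Nuclei with at least 2 Sst UMIs had 77.0 and 35.4 CPM in DISC1-N and 106.5 and 56.9 CPM in WT libraries (27.9% of all genes were lower in both). Nuclei with at least 2 Vip UMIs had log2 ratios of -0.075 and -0.025, within counting errors of 0.34 and 0.45 (29.5% of all genes were lower in both). Nuclei with at least 2 Pvalb UMIs were too few for a level.

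**Figure D5:**
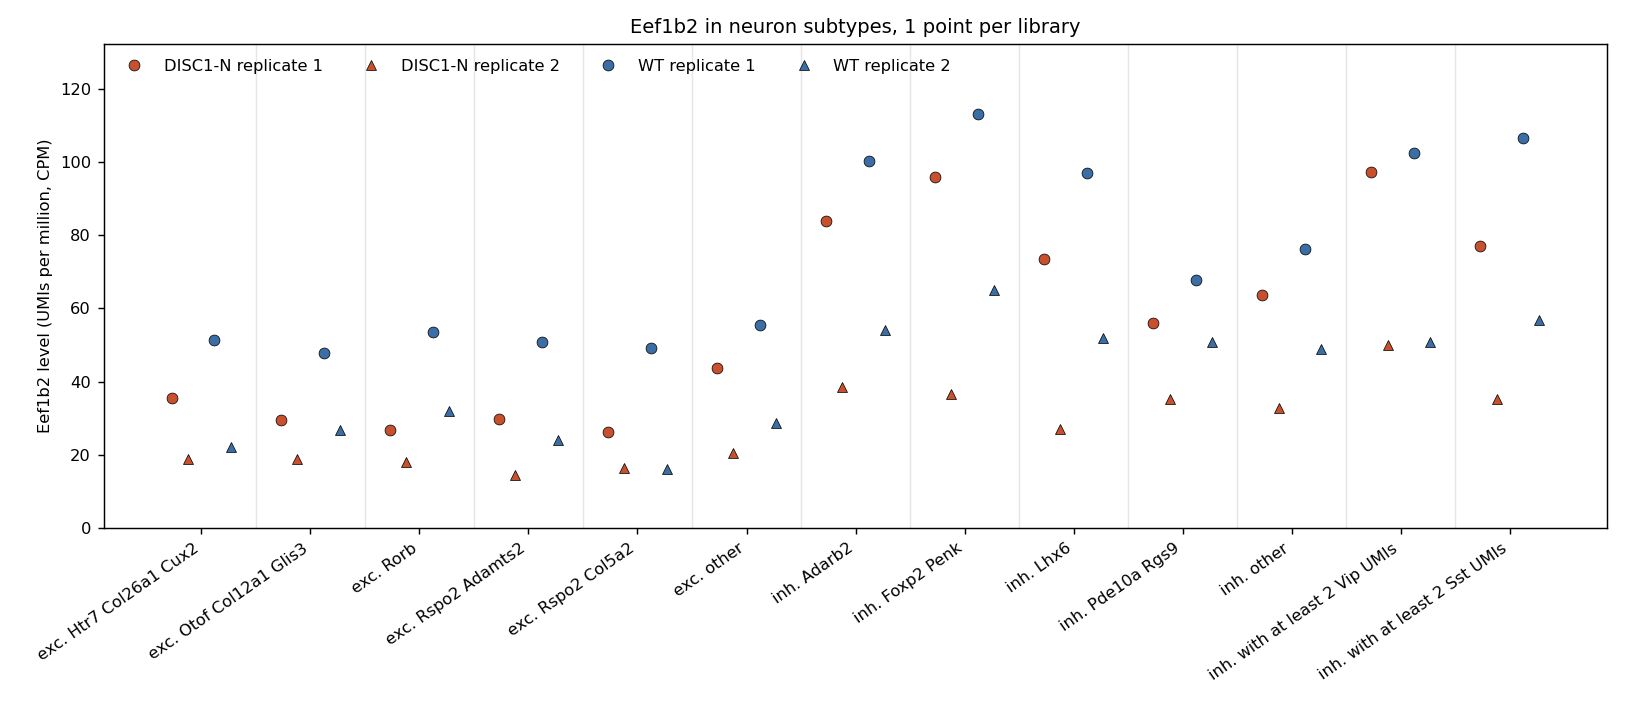
Level of Eef1b2 in CPM (y axis from 0) in 6 excitatory and 5 inhibitory subtypes and in inhibitory nuclei with at least 2 Vip or Sst UMIs (x axis). Each point is 1 library, with DISC1-N left of WT, circles for replicate 1 and triangles for replicate 2. The DISC1-N point lies below the WT point of the same shape everywhere except replicate 2 of Rspo2 Col5a2 (16.4 and 16.0 CPM).

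The remaining genes varied by subtype. Eef1a1 was lower in both replicate numbers in 5 of 6 excitatory subtypes, the exception being Rorb, with 86.2 and 55.2 CPM in DISC1-N and 111.0 and 51.2 CPM in WT libraries, and in 5 of 5 inhibitory subtypes. Eef1a2 was lower in both in 3 of 6 excitatory and 3 of 5 inhibitory subtypes. Eef1g was lower in both in 3 of 6 and 4 of 5, and Eef2 in 1 of 6 and 1 of 5. Eef1d took both sides: it was higher in both replicate numbers in 2 of 6 excitatory and 2 of 5 inhibitory subtypes, with 25.2 and 25.4 CPM in DISC1-N Lhx6 nuclei and 22.3 and 17.3 CPM in WT Lhx6 nuclei. In Foxp2 Penk nuclei it was lower, with 16.3 and 19.5 CPM in DISC1-N and 26.3 and 20.8 CPM in WT. Its log2 ratios in Lhx6 nuclei were 0.17 and 0.55, with counting errors of 0.39 and 0.345. In Foxp2 Penk nuclei they were -0.69 and -0.09, with counting errors of 0.33 and 0.23. The share of all genes higher in both was not computed within subtypes. It was 23.3% in excitatory and 23% in inhibitory neurons as whole classes. No difference between subtypes is read from the sides of Eef1d.

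Other genes of translation, listed with earlier results known, were called in neither fit of excitatory neurons. In the blocked fit 51.3% of all tested genes had a negative estimate. Of 26 other elongation genes 0 were called and 10 had a negative blocked estimate. Among the 26 were Eif5a and genes that modify or regulate the factors or serve mitochondria. The median log2 fold change of the 26 was 0.02, against -0.01 for all genes. Dph6, an enzyme that builds the diphthamide of eEF2, had 65.8 and 65.0 CPM in DISC1-N and 57.8 and 56.1 CPM in WT libraries (0.21 ± 0.08, adjusted p = 0.424 in blocked edgeR). Eef1akmt4, a lysine methyltransferase of eEF1A, had 6.09 and 2.94 CPM in DISC1-N and 2.78 and 3.11 CPM in WT. Of 40 initiation factors 0 were called, with 27 negative and a median of -0.03. Eif3d, a subunit of eIF3, had -0.30 ± 0.15 and Eif4h, a helper of the eIF4A helicase, -0.18 ± 0.10 (blocked edgeR). Of 11 termination and rescue genes tested of 12 listed, 0 were called and 7 were negative. The release factor Gspt2 had 0.19 ± 0.13, and Ascc3, a helicase that splits stalled ribosomes, 0.10 ± 0.07. Of 21 aminoacyl-tRNA synthetase genes 0 were called and 11 were negative, with 0.19 ± 0.09 for Dars and 0.15 ± 0.08 for Sars.

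Further lists held other mRNAs of the TOP class and the ribosomal proteins. Of 16 TOP genes that encode no ribosomal protein 0 were called and 9 were negative (median -0.02). Tpt1, the tumour protein TCTP, stood at 77.8 and 37.1 CPM in DISC1-N and 91.1 and 49.3 CPM in WT excitatory neurons (-0.31 ± 0.08, adjusted p = 0.0945 in blocked edgeR). Npm1, a nucleolar chaperone, stood at 54.7 and 35.9 CPM in DISC1-N and 66.2 and 44.0 CPM in WT (-0.28 ± 0.09, adjusted p = 0.201 in blocked edgeR). Cytosolic ribosomal protein genes had 79 negative estimates among 83 tested of 86 listed, where 51.3% of all genes were negative. Their median was -0.12, against -0.01 for all genes, and 0 were called. Rpl23 stood at 55.5 and 28.3 CPM in DISC1-N and 70.1 and 37.3 CPM in WT (-0.36 ± 0.09, adjusted p = 0.0565 in blocked edgeR), and Rpl15 at 57.0 and 28.0 CPM in DISC1-N and 66.3 and 36.6 CPM in WT (-0.29 ± 0.09, adjusted p = 0.201).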

How the data were processed

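Nuclear RNA of the BLA in 2 DISC1-N and 2 WT libraries was read with the 10x 3' v3 kit, according to the labels' protocols. The authors deposited raw UMI counts for each gene and barcode. They used Cell Ranger and the mm10 genome, per the submitters' processing notes, which name version 7.0.0. The file headers give 7.0.0 for replicate 1 and 6.0.2 for replicate 2. The sources used here do not say whether intronic reads were counted.

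Barcodes under 500 genes or above 5% mitochondrial UMIs were dropped, leaving 26850 of 27313, and 1518 of highest Scrublet score (0.8% per 1000 nuclei) were removed. Clusters came from scanpy 1.11.5 and leidenalg 0.10.2 at resolution 0.5 (30 components of 2000 variable genes, none of them one of the 6 genes, and 15 neighbours), and they took the class of their fixed markers. The doublet score limit of 0.1 for clusters and the split of a mixed neuron cluster were set after the data were examined. Subtypes came from each nucleus's highest marker score.

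UMIs were summed per class and library. CPM are UMIs scaled to that sum. Each class was fitted over all genes in edgeR 4.0.16 under R 4.3.3 (quasi-likelihood, TMM, filterByExpr minimum count 10, Benjamini-Hochberg adjusted p under 0.05), once without a block and once with the replicate number as one, with DESeq2 1.42.0 and limma 3.58.1 beside it. All 6 genes passed the filter in each class. The fits were tried on simulated data. Deviations of same-numbered libraries from their genotype mean had correlations of 0.475 to 0.638 over genes in the 6 classes, and the shared number goes with the software version. Counting errors are Poisson and cover counting only.

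Genes were matched to GENCODE by Ensembl ID (32158 of 32285). The 6 genes and all lists were chosen with earlier results of these data known. The named genes of each other list are those of lowest p in excitatory neurons, 2 per list, and the like genes the 3 of highest correlation without gene models, mitochondrial, ribosomal protein and sex-linked genes.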

Additional observations from a re-analysis of the deposited data

How the results depend on the processing

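The number of genes called, 0 in each class without a block, changed most with the replicate block: 69 in excitatory neurons, 19 in inhibitory neurons, 7 in astrocytes, 3 in oligodendrocytes and 4 in precursors (edgeR). Without the filter on low counts it was 13 in excitatory neurons and 1 in astrocytes. Added after seeing the data, all with the block in excitatory neurons, were the sums with the doublet-score cluster (37 genes), nuclei of 5000 to 15000 UMIs (17) and nuclei under 1% mitochondrial UMIs (50). Leaving out 1 library in turn, without a block, gave 4 to 19 genes in excitatory neurons (DISC1-N replicate 1 gave the 19 and WT replicate 2 gave 14 when left out, each of the others 4), 1 to 13 in inhibitory neurons (the 13 when DISC1-N replicate 1 was left out), 0 to 1 in oligodendrocytes, 0 to 1 in microglia and 0 in astrocytes and precursors.

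Eef1b2 in excitatory neurons was negative in 14 of 14 settings with all libraries (-0.54 to -0.32) and called in 2 of them. Leaving out 1 library, which unbalances the replicate numbers, gave -1.01 to -0.01 there, -1.07 to 0.05 in inhibitory neurons and -1.11 to -0.28 in astrocytes. In microglia it was 0.10 with classes set by each nucleus's own markers and negative in 9 of 10 settings. Estimates of the 6 genes under other settings with all libraries were set against the SD of log2 CPM between libraries of a genotype. By this limit 4 moved and 341 did not. That SD holds the difference between replicate numbers and is not the SE of an estimate. Of the levels 28 moved by more than the SD of the 4 libraries and 422 did not. Classes by each nucleus's own markers gave 20 of the 28. There the level of Eef1a1 in microglia was 174.4 CPM, and microglia were not the highest class for any of the 6 genes. In microglia the levels rest on 66 to 596 UMIs per gene over the 4 libraries.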
